A study of Mus musculus with 2 samples.

Results

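The Fc gamma receptor family was taken as 5 of the 32285 genes counted in the series, chosen by symbol: the activating receptor chains Fcgr1, Fcgr3 and Fcgr4, the inhibitory receptor Fcgr2b, and Fcer1g, the signalling chain that the activating receptors share. Each symbol matched 1 gene, namely ENSMUSG00000015947 for Fcgr1, ENSMUSG00000059498 for Fcgr3, ENSMUSG00000059089 for Fcgr4, ENSMUSG00000026656 for Fcgr2b and ENSMUSG00000058715 for Fcer1g. The cells came from orthotopic pancreatic tumors of male C57BL/6J mice, 5 to 6 weeks old when bought, made by placing K210 cells, a line from a genetic mouse model of pancreatic cancer in which Pdx1-Cre acts in the pancreas and deletes Trp53, into that organ. One library was from mice given PBS. The other was from mice given cmExoaCD11b, exosomes of mouse embryonic fibroblasts that carried IL-12 mRNA and the STING agonist 2′3′-cGAMP and bore antibodies to CD11b, an integrin of myeloid cells, on their surface. Dosing, intraperitoneal in both groups, began 7 days after implantation, at 5 µg of cGAMP per mouse for cmExoaCD11b, and cells were taken 48 h after treatment. Each library pooled 3 mice, so each group was 1 sample, and differences between animals could not be measured.

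Fc gamma receptors bind the constant part of IgG and so couple antibody to the cells of innate immunity. The activating chains sit at the surface with the gamma chain encoded by Fcer1g, whose tyrosine motif recruits the kinase Syk and starts phagocytosis, cytokine release and killing of antibody-coated targets. Fcgr2b carries an inhibitory motif that recruits the phosphatase encoded by Inpp5d, and it is the Fc gamma receptor of B cells. Type I and type II interferon are known inducers of Fcgr1, which encodes the high-affinity receptor, and Fcgr4 encodes a receptor for IgG2 antibodies on monocytes, macrophages and neutrophils.

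The 6835 PBS cells and 7073 cmExoaCD11b cells that were kept held 50364496 and 62260646 UMIs (unique molecular identifiers, which count captured transcripts), with medians of 3470 and 4103 per cell. Cells were assigned to 14 classes by 6 marker genes each, with at least 2 markers detected and more than of any other class, and 81.8% and 84.4% of the cells entered one. The classes with most Fc gamma receptor UMIs were neutrophil-like (3472 PBS and 3358 cmExoaCD11b cells), neutrophil precursor-like (915 and 955), monocyte-like (215 and 303) and macrophage-like (265 and 66). None of the 10 classes with enough cells to rank genes had markers of another among its 10 leading genes. The gates themselves favor this, so it does not show that a class was free of other cells' transcripts. In PBS neutrophil-like cells the 6 precursor markers summed to 43630 CPM, against 14949 CPM for their own 6. The libraries shared 16 cell barcodes. Levels are counts per 1000000 UMIs of the class (CPM) with 95% Poisson intervals, ratios between libraries carry exact conditional intervals, and all of them cover counting error only. With 1 library per group no test between conditions was possible, and the wording "higher" or "lower" refers to these 2 libraries. The assay counts 3′ ends, 1 per molecule, so levels of different genes are compared per transcript.

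Fcgr2b, Fcgr4 and Fcgr3 are consecutive protein-coding genes on chromosome 1, Fcer1g lies further along the same chromosome, and Fcgr1 is on chromosome 3. The 250 bases before the start of each gene were read from RefSeq (GRCm38.p6) because the members parted along interferon-stimulated transcripts, and were searched on both strands for TTCNNNGAA (GAS, the gamma-activated site of interferon-induced genes), GAAANNGAA (the core of the interferon-stimulated response element) and GAGGAA (the core bound by the myeloid factor PU.1). The capitals mark the matches:
Fcgr1, chr3:96293970-96294219, minus strand: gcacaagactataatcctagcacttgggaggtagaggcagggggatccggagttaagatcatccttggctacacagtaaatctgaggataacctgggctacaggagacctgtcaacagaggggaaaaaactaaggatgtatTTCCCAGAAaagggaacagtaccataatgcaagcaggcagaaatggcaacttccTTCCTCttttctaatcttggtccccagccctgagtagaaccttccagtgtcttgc
Fcgr4, chr1:171018676-171018925, plus strand: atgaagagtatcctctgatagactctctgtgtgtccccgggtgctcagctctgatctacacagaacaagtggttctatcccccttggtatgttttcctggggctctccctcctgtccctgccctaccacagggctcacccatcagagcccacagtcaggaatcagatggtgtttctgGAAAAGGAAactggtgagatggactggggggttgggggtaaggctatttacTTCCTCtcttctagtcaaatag
Fcgr3, chr1:171059404-171059653, minus strand: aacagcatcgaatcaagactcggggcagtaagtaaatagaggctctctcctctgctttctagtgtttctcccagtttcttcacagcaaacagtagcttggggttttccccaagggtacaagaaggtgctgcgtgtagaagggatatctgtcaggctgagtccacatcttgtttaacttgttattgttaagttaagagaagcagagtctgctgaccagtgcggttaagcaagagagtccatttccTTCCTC
Fcgr2b, chr1:170976072-170976321, minus strand: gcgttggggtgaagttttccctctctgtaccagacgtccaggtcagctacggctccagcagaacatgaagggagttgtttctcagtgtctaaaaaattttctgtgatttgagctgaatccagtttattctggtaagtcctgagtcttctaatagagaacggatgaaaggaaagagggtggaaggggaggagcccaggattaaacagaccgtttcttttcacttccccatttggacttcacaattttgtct
The Fcgr1 stretch held 1 GAS match, starting at position -109 from the start of the gene, and the Fcgr4 stretch held 1 response element core at -73. A GAGGAA match on the opposite strand stood at -55 in Fcgr1, -22 in Fcgr4 and -6 in Fcgr3. The Fcgr2b stretch had none of the 3 motifs, nor did that of Fcer1g. Of all 32851 promoter stretches of this length, 7.02% held a GAS match, 7.13% the response element core and 23.3% GAGGAA, and a match describes the letters only.

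Paralogs can share reads, so the ends that the assay reads were compared. Of the 1706 words of 31 bases in the last 600 bases of the annotated Fcgr2b transcripts, 145 (8.50%) also occurred in Fcgr3 transcripts, and of 1107 such words of Fcgr3 5 occurred in Fcgr2b. No such word was shared by any other pair of members.

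Fcer1g was the most abundant member in every myeloid class. It stood at 1875 CPM in PBS and 1932 CPM in cmExoaCD11b neutrophil-like cells, at 2328 and 2234 CPM in macrophage-like cells and at 1983 and 2319 CPM in monocyte-like cells. Natural killer (NK)-like cells, which use the same chain with CD16, matched these levels, at 2563 CPM in PBS (27 cells) and 1855 CPM in cmExoaCD11b (80 cells). T-like cells stood at 191 and 174 CPM, and B-like cells at 144 and 45.9 CPM, below every myeloid class.

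Fcgr3, the low-affinity activating receptor, was the leading alpha chain. In PBS it reached 718 CPM in macrophage-like, 659 CPM in monocyte-like and 589 CPM in neutrophil-like cells, but 245 CPM in neutrophil precursor-like cells. The precursor-like cells, gated by granule protein genes such as Ltf and Camp that neutrophil-like cells also contained, held the lowest Fcgr4 of these classes, 33.3 CPM in PBS against 94.3 CPM in neutrophil-like cells. Among these 4 classes Fcgr4 was highest in macrophage-like cells, at 258 CPM in PBS and 269 CPM in cmExoaCD11b. The 1 and 2 non-classical monocyte-like cells held 6 and 5 Fcgr4 UMIs, or 344 and 782 CPM.

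Fcgr1 and Fcgr2b separated the mononuclear phagocytes from the neutrophils. Fcgr1 stood at 167 CPM in macrophage-like and 137 CPM in monocyte-like PBS cells, against 7.72 CPM in neutrophil-like cells and 3.93 CPM in the precursors. Fcgr2b stood at 630 and 399 CPM in the same mononuclear classes, against 61.5 CPM in neutrophil-like and 75.9 CPM in precursor-like cells. The PBS neutrophil-like total of Fcgr1 was 161 UMIs from 87 of 3472 cells, and 16 cells held 50% of it.

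**Figure D1:**
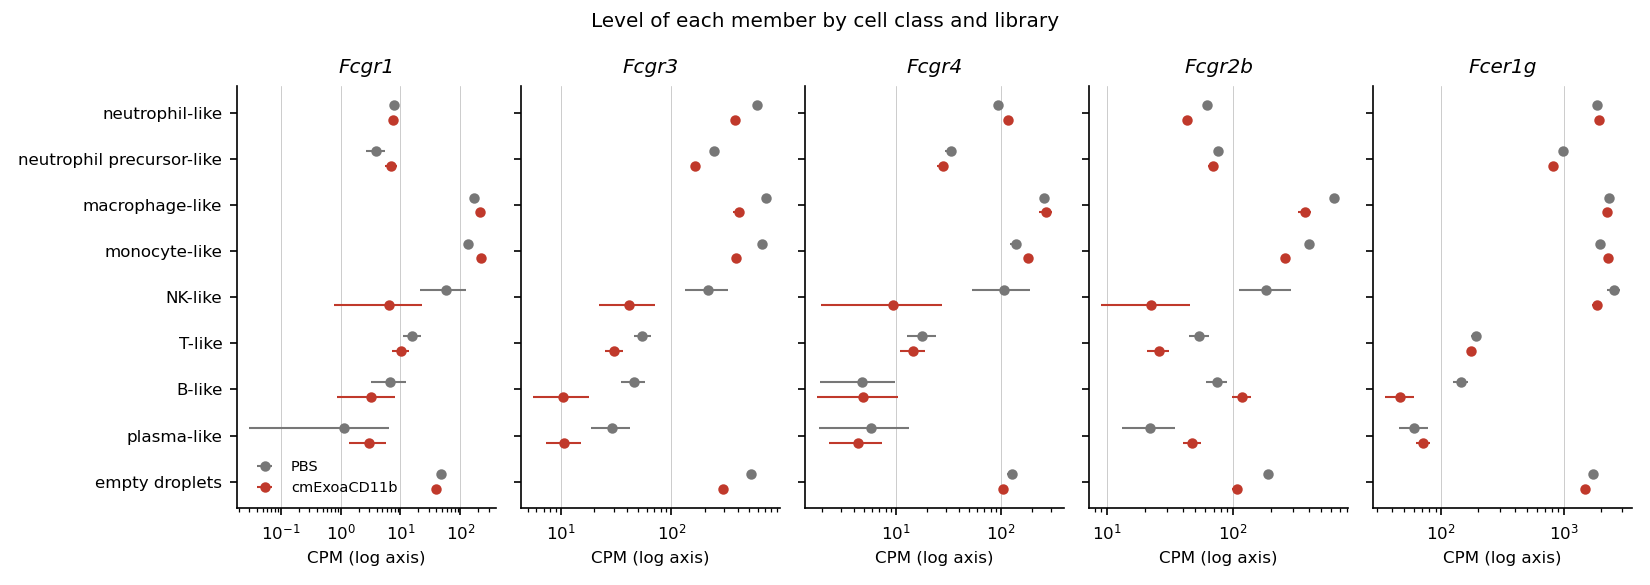
Level of each member in CPM (log axis) by class in the PBS (grey) and cmExoaCD11b (red) libraries; points are sums over the cells of a class and bars are 95% Poisson intervals of counting error. Fcgr1 and Fcgr2b were far higher in macrophage- and monocyte-like than in neutrophil-like cells, and Fcer1g was the most abundant member in every myeloid class shown. NK-like cells had Fcer1g at a myeloid level with wide intervals for the other members.

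Free RNA was the background for all these values. The droplets without cells held Fcer1g at 1744 CPM in PBS and 1488 CPM in cmExoaCD11b, and Fcgr3 at 519 and 290 CPM, but the part of a cell's UMIs that came from them, estimated from S100a8 and S100a9 in T-like cells, was 2.38% and 2.59%. After cells were thinned to 1000 UMIs each, 3.52% of PBS T-like cells (13 of 369) and 1.42% of cmExoaCD11b T-like cells (11 of 777) had an Fcgr3 UMI, at unthinned medians of 4993 and 4103 UMIs. On the same scale Fcgr3 was found in 48.9% of PBS and 37.0% of cmExoaCD11b neutrophil-like cells, at unthinned medians of 3485 and 4424 UMIs. The intervals of these last shares were 47.2 to 50.6% and 35.3 to 38.7%. Intervals of shares take cells as units, so they cover the draw of cells within a library and not differences between animals.

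In monocyte-like cells thinned to 1000 UMIs, Fcgr1 was found in 7.69% of PBS cells (95% Clopper-Pearson interval 4.46 to 12.2%) and 17.8% of cmExoaCD11b cells (13.6 to 22.7%). Thinned to 500 UMIs, the shares were 8.37% (5.04 to 12.9%) and 11.9% (8.46 to 16.1%), with intervals that overlapped. At 1000 UMIs Fcgr3 went the other way, from 38.9% to 28.4%, and the intervals overlapped at 32.3 to 45.9% and 23.3 to 34.0%. Macrophage-like cells had Fcgr2b in 37.7% of PBS cells and 24.6% of cmExoaCD11b cells, with intervals of 31.8 to 43.9% and 14.5 to 37.3%. At 1000 UMIs per cell, 24.6% of PBS macrophage-like cells (64 of 260) showed both an activating chain and Fcgr2b, against 4.13% of neutrophil-like cells (139 of 3366). A UMI of an activating chain alone was seen in 1682 of 3366 PBS and 1376 of 3266 cmExoaCD11b neutrophil-like cells.

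The comparison between the libraries asks how receptors for antibody differed 48 h after a treatment that delivers a STING agonist and IL-12 to myeloid cells. Fcgr3 was lower in cmExoaCD11b in each of the 4 myeloid classes. In neutrophil-like cells it went from 589 to 379 CPM, a ratio of 0.644 (0.627 to 0.661), in macrophage-like cells from 718 to 404 CPM, a ratio of 0.563 (0.499 to 0.634), and in monocyte-like cells from 659 to 384 CPM, a ratio of 0.582 (0.539 to 0.628). In precursor-like cells the ratio was 0.669 (0.626 to 0.715), just short of the 1.5-fold limit used to call a gene. In the neutrophil-like class the call did not hold among the deepest cells: it was 0.864 for the 893 PBS and 1256 cmExoaCD11b cells that a ranked-UMI cut-off by itself kept, and depth was not tested as its source. As a mean of per-cell CPM the macrophage-like ratio was 0.680, also inside the limit. In monocyte-like cells without an Arg1 UMI, described below, the Fcgr3 ratio was 0.814 (0.740 to 0.896), inside the limit as well. Marker lists of other classes also differed in neutrophil-like cells: the 6 precursor markers summed to 43630 CPM in PBS and 54726 CPM in cmExoaCD11b, the 6 monocyte markers to 3394 and 6891 CPM and the 6 macrophage markers to 141 and 44.5 CPM, all of them detected in both libraries, and their part in the ratio was not tested.

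Summed over each class, Fcgr1 and Fcgr4 were not lower in cmExoaCD11b in the macrophage- and monocyte-like classes. Fcgr1 went from 137 to 221 CPM in monocyte-like cells, a ratio of 1.62 (1.41 to 1.86), and from 167 to 213 CPM in macrophage-like cells, a ratio of 1.28 (1.07 to 1.52). In neutrophil-like cells the class sum was level, at 7.72 and 7.65 CPM, with ratios of 0.813 to 1.30 over the alternatives of processing. Divided by Arg1, the neutrophil-like cells had Fcgr1 ratios above 1, given below. In precursor-like cells Fcgr1 had a ratio of 1.78 (1.15 to 2.82) that rested on 31 and 68 UMIs. With each cell thinned to 1000 UMIs, in a single random draw, the Fcgr1 ratio was 3.16 in monocyte-like and 2.30 in macrophage-like cells. These values have no interval and rest on few cells with an Fcgr1 UMI. Such cells were 16 of 208 PBS and 52 of 292 cmExoaCD11b monocyte-like cells, and 32 of 260 and 13 of 61 macrophage-like cells. As a mean of per-cell CPM, which also weights shallow and deep cells equally, both Fcgr1 ratios stayed within the intervals given above. Fcgr4 was 94.3 and 117 CPM in neutrophil-like cells, a ratio of 1.24 (1.17 to 1.31), and 139 and 182 CPM in monocyte-like cells, a ratio of 1.31 (1.14 to 1.51). In macrophage-like cells its interval held 1 (ratio 1.04, 0.893 to 1.22), but the ratio was 0.806 with cells thinned to 1000 UMIs. In precursor-like cells it was 33.3 and 28.0 CPM, a ratio of 0.841 (0.707 to 1.00).

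The inhibitory Fcgr2b was lower in the same cells as Fcgr3. It went from 630 to 369 CPM in macrophage-like cells, a ratio of 0.586 (0.516 to 0.664), from 399 to 260 CPM in monocyte-like cells, a ratio of 0.652 (0.593 to 0.717), and from 61.5 to 43.1 CPM in neutrophil-like cells, a ratio of 0.701 (0.647 to 0.759). The precursor-like ratio was 0.906 (0.810 to 1.01). With gates that had to lead by 2 markers, the monocyte-like Fcgr2b ratio was 0.789, inside the limit. Among monocyte-like cells without an Arg1 UMI, described below, it was 1.18 (1.03 to 1.35). In monocyte-like cells the 6 macrophage markers summed to 1071 CPM in PBS and 588 CPM in cmExoaCD11b and the 6 neutrophil markers to 371 and 716 CPM, all detected in both, and their part in the ratios was not tested. Fcer1g moved little, with ratios of 1.03 in neutrophil-like, 0.960 in macrophage-like, 1.17 in monocyte-like and 0.840 in precursor-like cells.

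Counted against 1.5-fold and at least 50 UMIs over both libraries, all 5 members could be called in each of these 4 classes. In macrophage-like cells 2 of 5 were lower and 0 higher, where 11% and 12% of 7453 genes were. In monocyte-like cells 2 were lower and 1 higher, against 6.61% and 12.4% of 7854 genes. In neutrophil-like cells 1 was lower and 0 higher, against 14.2% and 10.1% of 10901 genes, and in precursor-like cells 0 were lower and 1 higher, against 6.22% and 14.9% of 10464 genes. The median ratio of all genes was 1.00 in neutrophil-like, 1.02 in macrophage-like, 1.06 in monocyte-like and 1.16 in precursor-like cells. With 5 members and 1 library per group, a count of 1 or 2 cannot be told from these backgrounds.

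**Figure D2:**
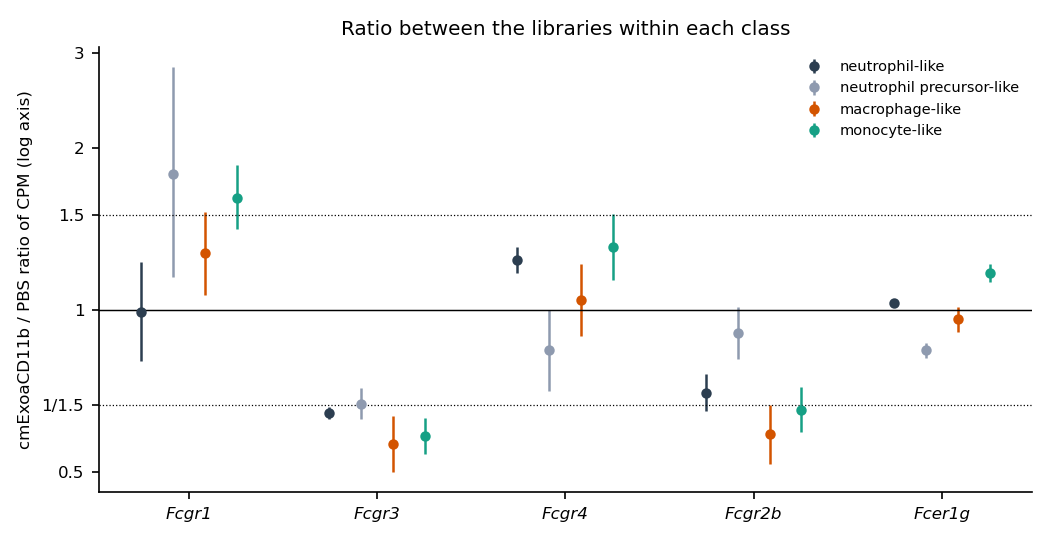
Ratio of CPM in cmExoaCD11b to PBS (log axis) for each member in the 4 myeloid classes; points are ratios of class sums, bars are 95% exact conditional intervals, and the dotted lines mark 1.5-fold in either direction. Fcgr3 lay below 1 in every class, Fcgr1 passed 1.5 in monocyte-like and precursor-like cells, and Fcgr2b was lowest in macrophage-like cells.

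The activating to inhibitory UMI ratio, (Fcgr1 + Fcgr3 + Fcgr4) to Fcgr2b, compares transcripts within the same cells and does not depend on the library total. It was 11.2 in PBS and 11.7 in cmExoaCD11b neutrophil-like cells, a change of 1.04 (0.958 to 1.13). In macrophage-like cells it was 1.81 and 2.40, a change of 1.32 (1.14 to 1.53), and in monocyte-like cells 2.35 and 3.03, a change of 1.29 (1.16 to 1.44). The monocyte-like change was not seen in the cells without an Arg1 UMI, described below. For the precursor-like class it was lower, 3.72 in PBS and 2.89 in cmExoaCD11b, a change of 0.778 (0.686 to 0.883). The ratio thus spanned several-fold between neutrophil-like and macrophage-like cells of the same library, well beyond its difference between the libraries.

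The make-up of the activating transcripts also differed between the libraries. Fcgr3 gave 70.5% of activating UMIs in PBS monocyte-like cells and 48.8% in cmExoaCD11b, and Fcgr1 gave 14.7% and 28.2%. In macrophage-like cells Fcgr3 gave 62.8% and 45.6%, and Fcgr1 14.6% and 24.0%. In neutrophil-like cells Fcgr3 gave 85.2% and 75.3%, and Fcgr1 1.12% and 1.52%. The share of Fcgr4 was higher in cmExoaCD11b in all 3 classes, at 13.6% and 23.2% in neutrophil-like, 14.8% and 23.1% in monocyte-like and 22.6% and 30.4% in macrophage-like cells. Precursor-like cells had Fcgr3 at 86.8% and 82.4%, Fcgr1 at 1.39% and 3.53% and Fcgr4 at 11.8% and 14.1% of activating UMIs. Fcer1g transcripts per activating transcript went from 2.71 to 3.84 in neutrophil-like cells, from 2.04 to 2.52 in macrophage-like cells and from 2.12 to 2.95 in monocyte-like cells.

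**Figure D3:**
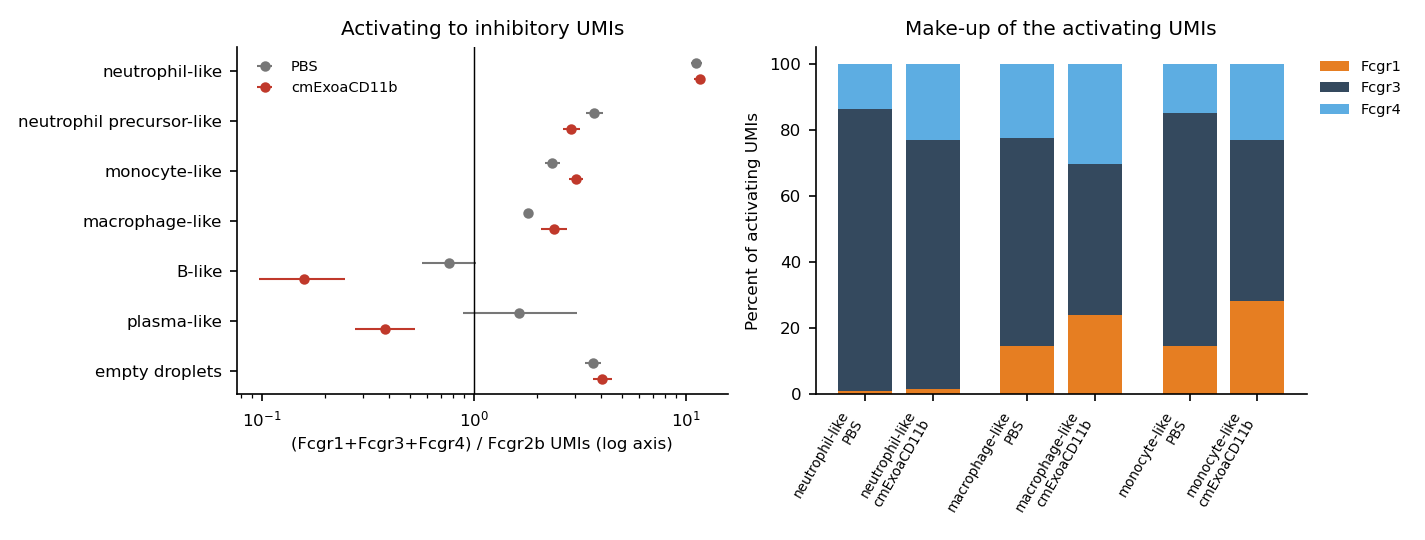
Left, activating to inhibitory UMI ratio (log axis) by class and in droplets without cells, with 95% intervals of counting error, PBS grey and cmExoaCD11b red. Right, percent of activating UMIs from each alpha chain in 3 myeloid classes; Fcgr3 held less of the total in cmExoaCD11b in all 3, and Fcgr1 and Fcgr4 each held more, Fcgr1 with 1.52% at most in neutrophil-like cells.

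Interferon-stimulated transcripts were higher in cmExoaCD11b in the same classes: of 9 listed genes (Rsad2, Usp18, Oasl1, Isg15, Irf7, Ifi44, Ifit1, Ifit2 and Ifit3) all but Ifi44 had 50 UMIs, and those 8 passed 1.5-fold higher in neutrophil-, macrophage- and monocyte-like cells. Each class was therefore divided at its median within its library by the share of a cell's UMIs that came from this list, into interferon-high and interferon-low cells. In cmExoaCD11b monocyte-like cells Fcgr1 was 351 CPM in interferon-high and 113 CPM in interferon-low cells, a ratio of 3.097 (2.63 to 3.65), and Fcgr4 was 280 and 99.6 CPM, a ratio of 2.81 (2.36 to 3.36). Fcgr3 and Fcgr2b differed less, with ratios of 1.51 and 1.46. The groups had 151 and 152 cells at medians of 9272 and 9274 UMIs.

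The same order held in PBS monocyte-like cells, with ratios of 1.83 for Fcgr1, 1.72 for Fcgr4, 1.26 for Fcgr3 and 1.13 for Fcgr2b. The interferon-low cells of the 2 libraries lay close for Fcgr1, at 97.5 and 113 CPM, and for Fcgr4, at 103 and 99.6 CPM, whereas Fcgr3 stood at 585 and 311 CPM and Fcgr2b at 375 and 215 CPM. The list itself was not level between these groups, at 22.4 and 499 CPM. Values of Fcgr1 and Fcgr4 in monocyte-like cells thus went with the interferon-stimulated transcripts of the cell. The lower Fcgr3 and Fcgr2b were present in interferon-high and interferon-low cells, but not alike in cells divided by Arg1, described below. Without an Arg1 UMI the ratios between libraries were 0.814 for Fcgr3 and 1.18 for Fcgr2b. The divisions by the interferon list and by Arg1 were not combined.

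In neutrophil-like cells Fcgr1 went with the list in both libraries, at 12.1 against 2.25 CPM in PBS and 16.2 against 2.50 CPM in cmExoaCD11b, ratios of 5.38 (3.39 to 8.97) and 6.45 (4.59 to 9.24). Fcgr4 had ratios of 1.19 in PBS and 2.02 in cmExoaCD11b, where it was 170 against 84.3 CPM. The cmExoaCD11b groups differed in depth, with medians of 3466 UMIs in interferon-high and 7321 in interferon-low cells, and the part of depth in these ratios was not tested. The division was also unlike between the libraries. Interferon-low neutrophil-like cells held 0 list UMIs in PBS, but 4025 (234 CPM) in cmExoaCD11b. In PBS macrophage-like cells the ratios were 1.34 for Fcgr1 and 1.45 for Fcgr4. In the 33 and 33 cmExoaCD11b macrophage-like cells both intervals held 1 (1.12, 0.818 to 1.55, and 1.04, 0.788 to 1.39), and Fcgr3 was lower in interferon-high cells, with a ratio of 0.687 (0.544 to 0.866). T-like cells, whose receptor UMIs sat in few cells, also had ratios above 1. In PBS they were 12.4 for Fcgr1, on 34 and 3 UMIs, 22.0 for Fcgr4, 7.17 for Fcgr3 and 5.82 for Fcgr2b. In cmExoaCD11b they were 3.39, 4.24, 3.67 and 2.77. PBS B-like cells were divided unequally, into 56 cells with list UMIs and 168 with 0, at medians of 6024.5 and 3444.5 UMIs. The part of depth in their ratios was not tested. These PBS B-like cells had a ratio of 14.0 for Fcgr1, on 9 and 1 UMIs, and 4.82 (3.51 to 6.73) for Fcer1g. Their ratios were 2.31 (1.38 to 3.91) for Fcgr3 and 1.62 (1.09 to 2.39) for Fcgr2b, and the Fcgr4 interval held 1. In cmExoaCD11b B-like cells every such interval held 1. The part of RNA from other cells in the neutrophil-like ratios was not tested.

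**Figure D4:**
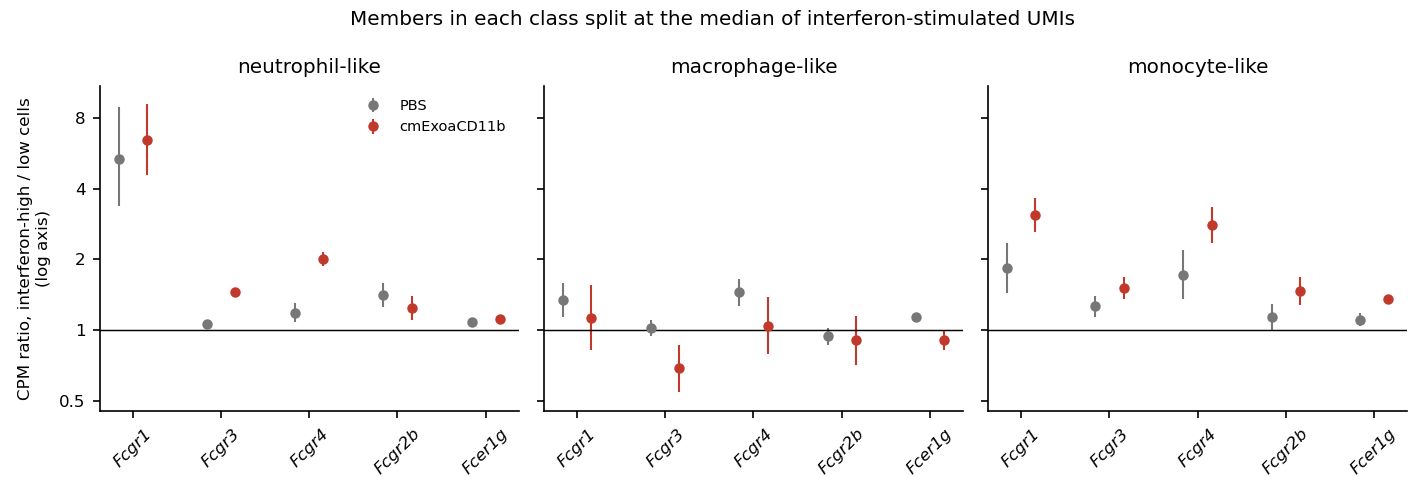
Ratio of CPM between interferon-high and interferon-low cells of each class (log axis), by member, PBS grey and cmExoaCD11b red; bars are 95% exact conditional intervals. Fcgr1 and Fcgr4 lay highest in monocyte-like cells, and Fcgr1 reached 5.38 and 6.45 in neutrophil-like cells. The interferon-low neutrophil-like cells of PBS held 0 list UMIs, unlike those of cmExoaCD11b.

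Cells were further divided by Arg1, the arginase of suppressive myeloid cells, by Cd274, which encodes PD-L1, by Mrc1 and by H2-Aa, genes that were picked after their values had been seen, with detection read at 1000 UMIs per cell. In monocyte-like cells an Arg1 UMI was found in 29.8% of PBS cells (62 of 208) and 4.11% of cmExoaCD11b cells (12 of 292). PBS monocyte-like cells with Arg1 had Fcgr2b at 758 CPM and Fcgr3 at 1041 CPM, against 216 and 467 CPM in those without. In the cells without Arg1, the Fcgr2b ratio between libraries was 1.18 (1.03 to 1.35), the opposite direction to the whole class, Fcgr3 had a ratio of 0.814 (0.740 to 0.896), Fcgr1 of 2.46 (2.03 to 3.01) and Fcgr4 of 1.80 (1.498 to 2.18). Among cells with Arg1 the Fcgr2b ratio was 0.663 (0.476 to 0.902), on 12 cmExoaCD11b cells. Without its Arg1 cells the class thus no longer had lower Fcgr2b in cmExoaCD11b, and still had higher Fcgr1. In the cells without Arg1, Fcgr1, Fcgr3, Fcgr4 and Fcgr2b held 124, 671, 143 and 310 UMIs in PBS. In cmExoaCD11b they held 689, 1232, 581 and 823, so the activating to inhibitory ratio there was level between the libraries.

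**Figure D5:**
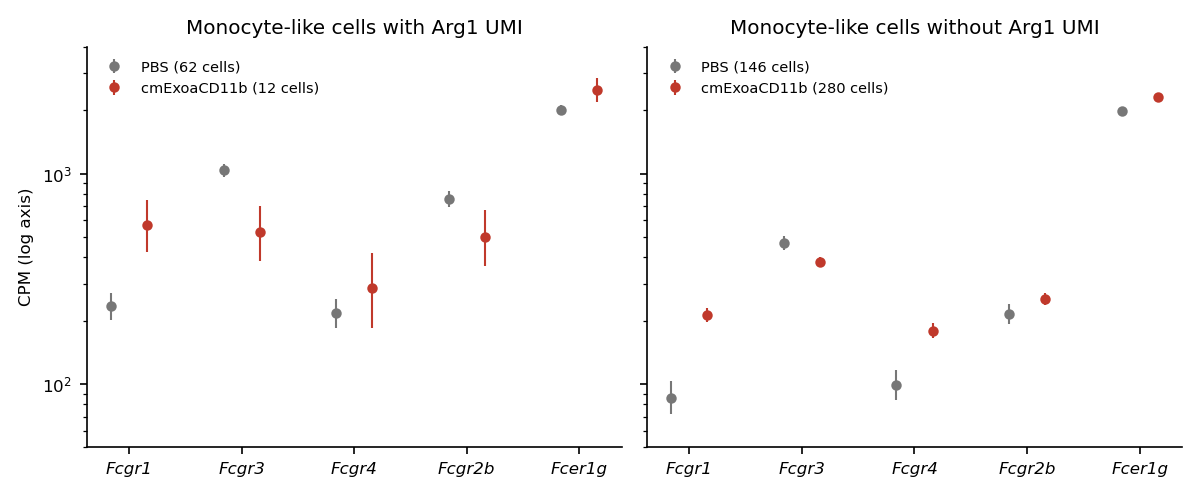
Level of each member in CPM (log axis) in monocyte-like cells with and without an Arg1 UMI at 1000 UMIs per cell, PBS grey and cmExoaCD11b red, with 95% Poisson intervals. In cells without Arg1, Fcgr2b was 216 CPM in PBS and 254 CPM in cmExoaCD11b, while Fcgr1 was 86.3 and 213 CPM.

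Macrophage-like cells showed the lower Fcgr2b and Fcgr3 on both sides of the same division. Without Arg1 the ratios were 0.734 (0.613 to 0.874) for Fcgr2b and 0.631 (0.532 to 0.745) for Fcgr3, and with Arg1 0.493 (0.409 to 0.591) and 0.512 (0.428 to 0.607). Arg1 was found in 51.5% of PBS and 37.7% of cmExoaCD11b macrophage-like cells, with intervals that overlapped. Fcgr4 went with H2-Aa, an MHC class II gene: it was 391 CPM with and 186 CPM without H2-Aa in PBS, and 382 and 102 CPM in cmExoaCD11b. Its ratio between libraries was 0.978 (0.817 to 1.16) with H2-Aa. Without H2-Aa it was 0.547 (0.367 to 0.788), on 31 UMIs in 30 cmExoaCD11b cells. H2-Aa was found in 34.6% of PBS and 50.8% of cmExoaCD11b macrophage-like cells, with intervals that overlapped. Cells with Mrc1, the mannose receptor, had Fcgr2b at 843 CPM in PBS, against 569 CPM in those without, while in cmExoaCD11b the 15 cells with Mrc1 had 316 CPM, against 390 CPM.

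In neutrophil-like cells Fcgr3 was higher with Cd274, at 992 against 478 CPM in PBS and 593 against 341 CPM in cmExoaCD11b. Its ratio between libraries was 0.598 (0.569 to 0.628) with and 0.712 (0.690 to 0.735) without Cd274. The few neutrophil-like cells with Arg1 (190 in PBS and 30 in cmExoaCD11b) had Fcgr2b at 235 and 239 CPM, against 51.8 and 41.2 CPM in the rest. They also had Fcgr1 at 57.5 CPM in PBS, against 4.88 CPM, and in cmExoaCD11b these 30 cells held 25 Fcgr1 UMIs, against 185 in the other 3236. The Fcgr1 ratio between libraries was 1.65 (0.996 to 2.66) with and 1.39 (1.08 to 1.80) without Arg1. Divided by Cd274, it was 1.62 (1.14 to 2.32) with and 0.839 (0.643 to 1.10) without.

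In cmExoaCD11b the inhibitory receptor outnumbered the activating chains in B-like and in plasma-like cells. In B-like cells Fcgr2b was 74.6 CPM in PBS (110 UMIs in 224 cells) and 117 CPM in cmExoaCD11b (145 UMIs in 229 cells), a ratio of 1.57 (1.21 to 2.03), and the activating to inhibitory ratio was 0.764 (0.568 to 1.02) and 0.159 (0.0975 to 0.247). With no doublets removed the Fcgr2b ratio was 1.21, inside the limit. Droplets without cells had ratios of 3.65 and 4.05. The Fcgr3 UMIs of PBS B-like cells were concentrated: 1 cell held 26 of 67, and 2 cells held 50% of both Fcgr3 and Fcer1g, whereas 12 cells held 50% of Fcgr2b. In cmExoaCD11b 25 B-like cells held 50% of Fcgr2b. Macrophage markers went the same way, at 171 CPM summed over 6 genes in PBS B-like cells and 21.7 CPM in cmExoaCD11b, with all 6 detected in both, and their part in the activating UMIs was not tested.

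Plasma-like cells, which secrete the antibody these receptors bind, had Fcgr2b at 21.9 CPM in PBS (19 UMIs in 39 cells) and 47.1 CPM in cmExoaCD11b (141 UMIs in 129 cells), a ratio of 2.15 (1.33 to 3.67). Their activating to inhibitory ratio was 1.63 (0.893 to 3.06) and 0.383 (0.275 to 0.528). Their IgG heavy chains did not move together. In plasma-like cells Ighg1 went from 6762 to 22919 CPM and Ighg3 from 79.6 to 5107 CPM, whereas Ighg2b went from 32235 to 21278 CPM and Ighg2c from 30901 to 10893 CPM. Few cells carried them in PBS, where 1 cell held 99.6% of Ighg1 and 2 cells held 50% of Ighg2b and of Ighg2c, and in cmExoaCD11b 9, 8 and 6 cells held 50% of Ighg1, Ighg2b and Ighg2c. In monocyte-like cells Ighg2b was 8.73 CPM in PBS and 1152 CPM in cmExoaCD11b, where 1 cell held 54.3% of it.

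Among the lymphoid classes, NK-like cells had the most Fcer1g. In NK-like cells Fcer1g outnumbered Fcgr3 by 12.1 in PBS and 45.1 in cmExoaCD11b, against 3.36 and 5.13 in droplets without cells. Fcgr3 itself was 22 UMIs in PBS, 16 of them in 1 cell, and 13 UMIs in cmExoaCD11b, spread over 11 cells, and all 19 Fcgr2b UMIs of the PBS class came from 1 cell. Macrophage markers summed to 1393 CPM in PBS and 60.1 CPM in cmExoaCD11b NK-like cells, and their part in those UMIs was not tested. In T-like cells the Fcer1g to Fcgr3 ratio was 3.50 and 5.73, within counting error of the droplets without cells. Neutrophil-like cells lay near the same values, at 3.18 and 5.09. The T-like Fcer1g to Fcgr2b ratio was 3.56 (2.91 to 4.37) and 6.82 (5.52 to 8.50), below the 9.17 and 13.9 of those droplets. The source of the T-like UMIs was not tested. In PBS 4 cells held 50% of the T-like Fcgr3 UMIs and of the T-like Fcgr2b UMIs. The T-like Fcgr2b ratio of 0.475 (0.362 to 0.622) rested on those UMIs. Cells of the keratin gate, at 38 and 28 cells and with none of the gate's markers among their 10 leading genes, had 5 and 0 Fcgr1 UMIs, 26 and 6 Fcgr3 UMIs and 4 and 4 Fcgr2b UMIs.

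Other genes of the pathway were counted from fixed lists, at 1.5-fold and 50 UMIs over both libraries. Of 6 other receptors that pair with the gamma chain, 4 could be called in each of neutrophil-, macrophage- and monocyte-like cells. In that order 1, 2 and 2 were lower, against 14.2%, 11% and 6.61% of all genes. In the same order 0, 1 and 0 were higher, against 10.1%, 12% and 12.4%. Clec4n, which encodes Dectin-2, was lower in all 3, with ratios of 0.385, 0.650 and 0.478. Clec4e, which encodes Mincle, was lower in macrophage-like cells (263 to 138 CPM, ratio 0.523), Clec4d in monocyte-like cells (274 to 147 CPM, ratio 0.537), and Pira2 was higher in macrophage-like cells (21.6 to 39.0 CPM, ratio 1.81). In precursor-like cells 5 could be called and all 5 were lower, against 6.22% of all genes. Their ratios were 0.289 for Clec4n, 0.425 for Clec4d, 0.467 for Oscar, 0.477 for Clec4e and 0.592 for Pira2.

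Of 11 kinases and adaptors of activating signalling, 2 were higher and 0 lower in both macrophage- and monocyte-like cells, near the 12% and 12.4% of all genes that were higher there. Pik3cd, a PI3-kinase subunit, was higher in neutrophil-, macrophage- and monocyte-like cells, with ratios of 1.83, 1.68 and 1.56. Fgr (ratio 1.56) in macrophage-like and Lyn (ratio 1.56) in monocyte-like cells, both of them Src-family kinases that phosphorylate the receptor chains, were also higher, and Lat2 was lower in neutrophil-like cells (ratio 0.541). Of 7 genes of inhibitory signalling, Dok2 alone passed in these 3 classes, in macrophage-like cells (60.6 to 39.0 CPM, ratio 0.643). In T-like cells Dok3 was lower (ratio 0.552, 0.304 to 1.00), 1 of 7 that could be called. In NK-like cells Inpp5d (ratio 1.76) and Cbl (ratio 1.84) were higher, 2 of 3 that could be called. Activating signalling went the same way there, with 4 of 7 callable kinases and adaptors higher and 0 lower. The share of all genes past the limit was not counted for T-like or NK-like cells. Inpp5d, the phosphatase gene that acts below Fcgr2b, was 243 and 362 CPM in monocyte-like cells, a ratio of 1.49 that stayed inside the limit.

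Of 3 other adaptors Tyrobp, the DAP12 chain, stayed inside the limit in these 3 classes, with ratios of 0.900, 0.802 and 0.954. Cd247, the zeta chain of T and NK cells, was higher in neutrophil-like (0.719 to 2.65 CPM, ratio 3.68) and macrophage-like cells (13.7 to 37.7 CPM, ratio 2.75). T-cell markers in macrophage-like cells summed to 56.0 CPM in PBS and 159 CPM in cmExoaCD11b, all 6 detected in both, and their part in the Cd247 value was not tested. Among 12 other Fc receptors, few reached 50 UMIs. In neutrophil-like cells 3 could be called, 2 higher and 1 lower, against 10.1% and 14.2% of all genes. Trim21, the cytosolic antibody receptor, and Fcrl1 were higher there (3.31 to 8.70 CPM, ratio 2.63, and 3.02 to 5.22 CPM, ratio 1.73). Fcgrt, the neonatal Fc receptor, was lower there (2.25 to 0.399 CPM, ratio 0.177), on 47 and 11 UMIs. Macrophage markers were also lower in those cells, and their part in the Fcgrt value was not tested. In precursor-like cells 2 of 2 were higher, against 14.9% of all genes, Fcgrt with a ratio of 1.51 (0.987 to 2.35). In macrophage-like cells 2 could be called, and Fcrls was lower (109 to 19.5 CPM, ratio 0.179), against 11% of all genes.

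Genes with the pattern most like each member were ranked by Pearson correlation of log2(CPM + 1) over 14 points, 7 classes in 2 libraries, among 11033 genes, as a description: the points of a library share its depth and its free RNA. The nearest to Fcer1g was Tyrobp (0.993), followed by Tlr2 (0.987) and Gab2 (0.985). The nearest to Fcgr3 were Cd14 (0.991), Gab2 (0.987) and Plin2 (0.982), to Fcgr4 Gm40645 (0.977), Klra2 (0.975) and Cd300c2 (0.972), to Fcgr1 Dock4 (0.967), Tmem106a (0.964) and Ms4a8a (0.963), and to Fcgr2b Deptor (0.960), Psap (0.959) and Epn1 (0.953). Among the members, Fcer1g lay closest to Fcgr3 (0.977) and Fcgr4 (0.956), and Fcgr2b lay closer to Fcgr1 (0.864) than to its chromosomal neighbours Fcgr4 (0.693) and Fcgr3 (0.605).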

How the data were processed

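Each library was made with 10x 3′ chemistry from the cells of 3 pooled mice. The authors deposited unfiltered matrices of counts, UMIs per gene and barcode, for 644248 PBS and 723594 cmExoaCD11b barcodes. The deposited matrices name Cell Ranger 7.1.0 in their headers, and the genome build is not given in the sources used here. Cells were called by a ranked-UMI cut-off plus a multinomial test against droplets of up to 100 UMIs (at least 500 UMIs, false discovery rate 0.01), and those under 200 genes or over 20% mitochondrial UMIs were dropped. The automatic Scrublet threshold marked 0 doublets in both libraries, so the 421 and 453 cells with the highest scores, 0.8% per 1000 cells, were removed. UMIs were summed by class. A gene was called past 1.5-fold with at least 50 UMIs over both libraries. The scripts were tested on simulated data (Python 3.11.15, scipy 1.17.1, scanpy 1.11.5). Genes named were the members, list genes past the limit and the 3 nearest genes per member; other genes were named after their values were seen. Members, markers and lists were chosen with earlier results of these data known. A listed gene, Pira6, was not matched, and some listed items are not reported here. Alternatives changed cell calling, filters, gates, scaling, weighting and free RNA.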

Additional observations from a re-analysis of the deposited data

Results flagged for a closer look

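Fcgr2b differed between the libraries in opposite directions by class. Its ratio of cmExoaCD11b to PBS was 1.57 in B-like and 2.15 in plasma-like cells, and 0.586 in macrophage-like, 0.652 in monocyte-like and 0.475 in T-like cells, each past 1.5-fold with an interval clear of 1. Each group was 1 library, so the difference between the classes was not tested. The B-like ratio was 1.21 when no doublets were removed, and the T-like value rested on few cells. The monocyte-like ratio was 0.789 with gates 2 markers ahead, and 1.18 (1.03 to 1.35) in cells without Arg1.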

How the results depend on the processing

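Ratios of the 5 members and the activating to inhibitory change in neutrophil-, macrophage- and monocyte-like cells were recomputed under 10 alternatives, 1 of them, gates without the neutrophil precursor list, chosen after seeing the data. No called ratio changed direction. With at most 10% mitochondrial UMIs, no doublets removed, at least 3 markers per gate, free RNA subtracted or scaling without mitochondrial and ribosomal protein genes, these values stayed within the counting intervals of the reported ones. Under the ranked-UMI cut-off alone, neutrophil-like Fcgr3 was 0.864, Fcgr4 1.39, Fcer1g 1.05 and the activating to inhibitory change 1.39, and macrophage-like Fcer1g was 0.910. With gates 2 markers ahead of any other class, neutrophil-like Fcgr1 was 1.30 and Fcer1g 1.01, and monocyte-like Fcgr2b was 0.789 and the activating to inhibitory change 1.13. With the mean of per-cell CPM, neutrophil-like Fcgr1 was 1.24, Fcgr2b 0.762, Fcer1g 1.06 and the change 0.943, macrophage-like Fcgr3 was 0.680 and Fcer1g 1.18, and monocyte-like Fcer1g was 1.23. With cells thinned to 1000 UMIs, neutrophil-like Fcgr1 was 1.28, Fcgr4 1.14 and Fcer1g 1.07. Under the same thinning, macrophage-like Fcgr1 was 2.30, Fcgr4 0.806, Fcgr2b 0.514, Fcer1g 1.24 and the change 1.65, and monocyte-like Fcgr1 was 3.16, Fcer1g 1.12 and the change 1.45. Without the precursor list, neutrophil-like Fcgr2b was 0.818, Fcer1g 1.01 and the change 0.899, and no precursor-like value could be given. The cause of these shifts was not tested. No paired analysis was possible because each group was a single library. Fcgr1 in neutrophil-like cells and all members but Fcer1g in NK-like cells were limited by few UMIs, and a difference between animals could not be told apart from a difference between treatments.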
